A study of Mus musculus with 37 samples.

Results

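The mucins Muc1, Muc4, Muc13, Muc15, Muc16 and Muc20 were followed across the upper urinary tract and bladder. These 6 gene symbols were chosen by name, and the set was picked because Muc1 was high on the cancer side, so its difference between the cancer and noncancer sides is a description here and was not tested. Of the 6, 5 have a row among the 24421 gene symbols of the count table, and Muc16 was not analysed here. The libraries came from female BALB/c wild-type mice. BBN mice drank the carcinogen N-butyl-N-(4-hydroxybutyl) nitrosamine (BBN) at 0.05% for 18 weeks from early adulthood, and control mice drank tap water. The groups were the cancer side of the BBN upper tract (UT, 10 libraries from 9 mice), the noncancer side of BBN mice (UN, 7 libraries), both ureters of 3 untreated mice (U, 6 libraries), BBN bladder (BB, 9 libraries) and untreated bladder (B, 3 libraries). Whole pieces of tissue were sequenced, UN was noncancerous under the microscope although it had met the carcinogen, and each U pair shared a mouse. UT 9 and the BBN bladder of mouse 6, whose library name carries a T, were kept out of the group values and are given apart. Libraries held 3557697 to 18793560 counts each. The RNA integrity number was under 5 in 3 BB libraries (BB 1, BB 3 and BB 4), 1 UN library (UN 6) and 1 U library (U 1), and UN 6 also had the fewest counts of the ureter libraries (4675081) and the largest share of counts in its 10 leading genes (35.5%).

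Mucins are large glycoproteins whose serine- and threonine-rich domains carry dense O-linked sugar chains. The members measured here are of the membrane-bound class, which is anchored in the apical surface of epithelial cells, where the extracellular part helps form the glycocalyx and the short cytoplasmic tail can take part in signalling. In the urinary tract the urothelium bears such a glycocalyx towards the urine. The sugar chains start with N-acetylgalactosamine (GalNAc) placed by enzymes of the Galnt family, and are then built into cores, extended, and capped by sialic acid or fucose.

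In the GRCm38 annotation Muc1 lies on chr3:89229057-89233381 on the plus strand and Muc15 on chr2:110721340-110739527 on the plus strand, inside the span of Ano3 on the opposite strand. The other measured members share chromosome 16. Muc4 lies at chr16:32735886-32782391 on the plus strand, Muc20 at chr16:32777419-32797435 on the minus strand and Muc13 at chr16:33794037-33819934 on the plus strand. Muc4 and Muc20 run towards each other and share 627 exonic bases, of 11757 in Muc4 and 4027 in Muc20. The library kit does not mark strand, so reads in that shared stretch cannot be assigned to either gene and the levels of both are uncertain to that extent. Muc15 and Ano3 share 61 exonic bases. Levels of different genes are compared per kilobase of exon below.

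The 250 bases before the RefSeq start site (GRCm38.p6) are shown for Muc1, the member the results turn on, and for Muc20 and Muc4, the pair that shares exonic bases. Capitals mark matches, on either strand, to TATAAA, to GGGCGG (the GC box) or to CCAAT. The AP-1 motif TGANTCA and the STAT motif TTCNNNGAA were searched too and had no match in these 3 windows. The Muc13 windows, not shown, held TGACTCA 61 and TTCTTGGAA 140 bases before a start site, and TGAGTCA 179 bases before a further start site.
Muc1, chr3:89228806-89229055, plus strand: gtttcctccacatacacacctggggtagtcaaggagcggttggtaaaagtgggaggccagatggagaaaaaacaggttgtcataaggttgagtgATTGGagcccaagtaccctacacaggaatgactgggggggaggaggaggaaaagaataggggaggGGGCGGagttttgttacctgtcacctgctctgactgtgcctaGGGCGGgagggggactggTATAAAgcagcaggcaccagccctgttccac
Muc20, chr16:32797436-32797685, minus strand: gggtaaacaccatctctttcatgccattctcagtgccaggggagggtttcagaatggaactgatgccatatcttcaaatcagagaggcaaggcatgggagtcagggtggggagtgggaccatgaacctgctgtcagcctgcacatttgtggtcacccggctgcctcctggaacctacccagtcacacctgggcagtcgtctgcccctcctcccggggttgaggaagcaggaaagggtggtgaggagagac
Muc4, chr16:32735636-32735885, plus strand: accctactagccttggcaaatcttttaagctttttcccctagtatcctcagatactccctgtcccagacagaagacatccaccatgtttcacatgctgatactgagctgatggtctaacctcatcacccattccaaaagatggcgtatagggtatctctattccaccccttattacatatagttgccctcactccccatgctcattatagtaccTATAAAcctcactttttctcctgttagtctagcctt
The Muc1 window held TATAAA starting 31 bases before the start site, GC boxes starting 91 and 49 bases before it and a reversed CCAAT starting 156 bases before it. The Muc4 window held TATAAA starting 36 bases before the start site, and the Muc20 window held none of the 5 motifs. Among 32851 promoter windows of the same length, 12.4% held TATAAA, 32.7% the GC box, 33.9% CCAAT, 6.75% TGANTCA and 7.02% TTCNNNGAA. The share of G and C was 54.8% before Muc1, 57.2% before Muc20 and 43.6% before Muc4, beside a median of 52.4% over all windows.

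Muc1, a broadly expressed epithelial mucin whose tail binds kinases and beta-catenin, was close to background in the untreated ureter and far higher on the cancer side. In U it was 0.248 CPM (counts scaled to a library total of 1000000) at the lowest, 0.351 at the median and 0.557 at the highest, from 4 to 8 reads a library. In UN it was 0 at the lowest (UN 6, where 3 counts, the limit that a count of 0 allows, are 0.642 CPM), 1.82 at the median and 38.7 at the highest (UN 3). In UT it was 9.64 at the lowest (UT 6), 121 at the median and 278 at the highest (UT 2), with a mean of 127 ± 80.9 (SD, n = 10). UT and U did not overlap, whereas UN spread over the range from U into UT. The log2 fold change of UT against UN was 3.88 ± 0.79 (SE), that of UT against U was 8.10 ± 1.09 and that of UN against U was 4.23 ± 0.97. UN 3 carried much of the last: without it UN against U was 2.41 ± 0.69 and UT against UN was 5.69 ± 0.66. With the mouse as a random effect UN against U was 2.73 ± 1.61 and UT against UN 4.88 ± 0.91, and with the mouse as a block UT against UN was 5.24 ± 0.84.

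**Figure D1:**
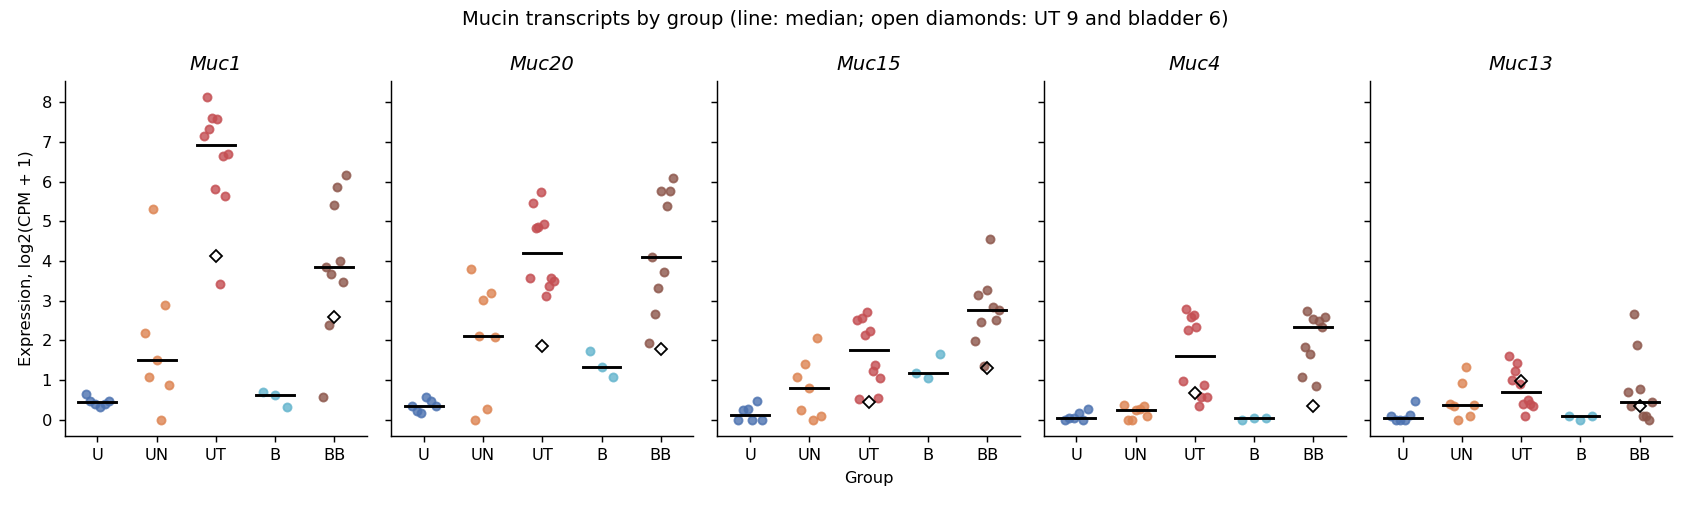
Expression of each measured mucin as log2(CPM + 1) on the y axis, with 1 point per library in untreated ureter (U), BBN noncancer side (UN), BBN cancer side (UT), untreated bladder (B) and BBN bladder (BB). Black lines are medians over the points and open diamonds are UT 9 and bladder 6, and Muc1 in UT reaches 278 CPM while all U libraries stay under 0.6 CPM.

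Within the 7 mice that had both sides sequenced, Muc1 was higher in UT than in UN in 7 of 7, UT 9 included. The fold ranged from 4.10 in mouse 3 (159 against 38.7 CPM) to 254 in mouse 2 (278 against 1.10 CPM), leaving aside mouse 6, where UN was at 0. Muc1 in UT was also above that of the same mouse's bladder in 7 of 7. Of these bladders, BB 1, BB 3 and BB 4 were of low RNA integrity, and that of mouse 6 was kept out of the groups. In the other mice UT and bladder held 278 and 13.4 CPM (mouse 2), 98.89 and 57.63 CPM (mouse 7), and 16.31 and 9.997 CPM (mouse 9). In mouse 1 they held 139.8 and 0.4735 CPM, and in mouse 6 9.64 and 4.98 CPM. The right and left cancer sides of mouse 5 held 54.8 and 189 CPM, so the 2 sides of this animal were far apart. These orderings describe a gene chosen for its level on the cancer side and were not tested.

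**Figure D2:**
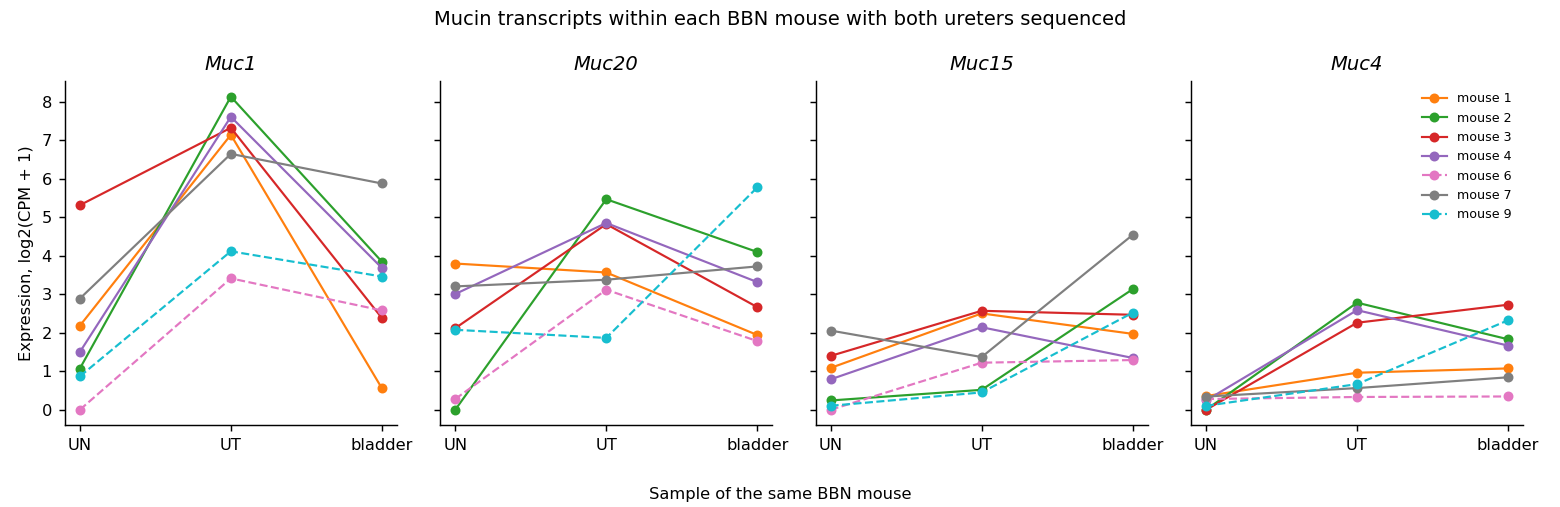
Expression as log2(CPM + 1) on the y axis in UN, UT and bladder of the same BBN mouse, 1 line per mouse and 1 panel per gene. Dashed lines are mouse 6, whose bladder is the library with T in its name, and mouse 9, whose UT was left out of the groups. Muc1 peaks in UT in 7 of 7 mice, and Muc4 is higher in bladder than in UN in 7 of 7. In mouse 6 the latter is 3 reads in bladder against 1 in UN. The bladders of mice 1, 3 and 4 had RNA integrity numbers under 5.

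Muc20, a mucin known for binding the MET receptor, was measurable in BBN tissue of both organs. It was 0.133 CPM at the lowest, 0.269 at the median and 0.496 at the highest in U, and 0, 3.34 and 12.9 CPM in UN. In UT it was 7.67 at the lowest, 19.1 at the median and 52.6 at the highest. UT lay wholly above U, and 5 of 7 UN libraries were above 3 CPM while UN 2 and UN 6 were at the level of U. A gene was called at an FDR under 0.1 with at least a 2-fold change. Muc20 exceeded its U level in UT by 6.02 ± 0.82 on the log2 scale (edgeR FDR 2.06e-05) and in UN by 3.87 ± 0.78 (edgeR FDR 0.00325). UT against UN, given without a test, was 2.15 ± 0.60, with UT above UN in 5 of 7 mice. With the mouse as a random effect in limma, UN against U was 3.21 and no longer called (FDR 0.124).

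Muc15, a membrane mucin first known from milk fat globules, was 0 at the lowest, 0.0956 at the median and 0.385 CPM at the highest in U. It was 0, 0.730 and 3.16 CPM in UN and 0.432, 2.50 and 5.53 CPM in UT. UT again lay above every U library, but on a range of few reads. UT exceeded U by 4.01 ± 0.89 on the log2 scale (edgeR FDR 0.00105). UN exceeded U by 2.65 ± 0.90 (edgeR FDR 0.0524), a call that was lost without UN 3 (FDR 0.105), UN 7 (0.131), U 1 (0.110) or U 4 (0.113), or with the mouse as a random effect (0.124). UT against UN was 1.35 ± 0.70, not tested, and UT was above UN in 6 of 7 mice.

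Muc4, a ligand of ERBB2 on the cell surface, was near 0 in the ureter outside the cancer. Its highest value was 0.195 CPM in U and 0.281 CPM in UN, summing to 6 and 11.5 reads over the groups. In UT it was 0.259 at the lowest, 2.37 at the median and 5.87 CPM at the highest, and the libraries fell on either side of a gap, with 5 between 3.79 and 5.87 CPM and 5 between 0.259 and 0.948 CPM. The excess of Muc4 in UT over U was 5.10 ± 0.96 on the log2 scale (edgeR FDR 0.000247), and 6.01 without U 6, which held 3 of the 6 U reads. Between UN and U the difference was 1.11 ± 1.06 (edgeR FDR 0.503) and was not detectable at this depth (0.82 to 2.03 with a library left out, the highest without U 6). UT against UN was 3.99 ± 0.84, not tested, and 3.21 ± 0.87 when the mouse was a random effect. The 5 UT libraries high in Muc4 were also those with 27.2 CPM of Muc20 or more, and the correlation of the 2 genes within UT was r = 0.974 (log2(CPM + 1), 10 libraries), where both share exonic bases and libraries.

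Muc13, a mucin best known from the intestinal surface, stayed low in every group. It was at most 0.391 CPM in U, 1.50 CPM in UN and 2.06 CPM in UT, summing to 8, 29 and 111 reads. UT exceeded U by 2.80 ± 0.97 on the log2 scale (edgeR FDR 0.0210). U 6 alone held 6 of the 8 U reads, and without it this difference was 4.33. UT against UN was 0.63 ± 0.81, not tested, and 1.31 ± 0.79 without UN 6, with the ranges of both groups overlapping. UN exceeded U by 2.18 ± 1.05 and was not called (edgeR FDR 0.169), although it was called without U 6 (3.72, FDR 0.0467) and by DESeq2 (2.43, FDR 0.0835).

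Muc4, Muc13, Muc15 and Muc20, at most 0.5 CPM in every U library, could be tested against U only through their higher levels in BBN tissue, and none of the 4 passed the filter when UN and U were fitted alone. Their number of calls is therefore not set against the share over all genes, which was 32.9% in UT against U (18.6% higher) and 11.9% higher in UN against U. The calls of Muc15 and Muc20 in UN were both lost with mouse as a random effect. Both comparisons share the U libraries.

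**Figure D3:**
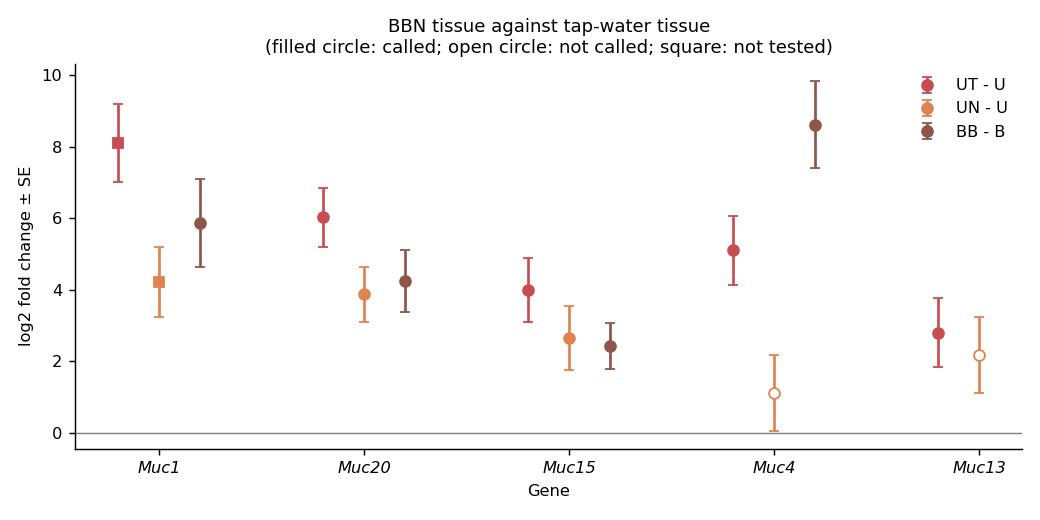
Fitted log2 fold change with its SE on the y axis for each measured mucin, in UT against U, UN against U and BB against B. Filled circles were called, open circles were not, and squares are Muc1 in ureter comparisons, which were not tested. Muc13 has no bladder point because its counts were too low to be tested. The fitted 8.61 of Muc4 in bladder stands against B values of 0, 0.5 and 0.5 counts, rounded to 0 for the fit.

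The rise of Muc1 for which the set was picked was that of the ureter, not of the bladder, although the set was chosen with earlier results of both known. Muc1 was 0.241, 0.533 and 0.627 CPM in the 3 B libraries, and in BB it was 0.474 at the lowest (BB 1), 13.4 at the median and 70.6 at the highest (BB 10). All BB libraries but BB 1 lay above B. Muc1 rose by 5.86 ± 1.22 on the log2 scale (edgeR FDR 0.00850). Muc20 was 1.11, 1.50 and 2.30 CPM in B and 2.84 at the lowest, 16.1 at the median and 66.5 at the highest in BB, with no overlap. It rose by 4.25 ± 0.86 (edgeR FDR 0.00683).

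Muc4 summed to 1 read over the 3 B libraries (0, 0.5 and 0.5) and to 344 over the 9 BB libraries. In BB it was 0.795 at the lowest, 4.01 at the median and 5.62 CPM at the highest, so every BB library was above every B library. The ratio of summed reads per total, with the B sum taken as 1 whole read, was 158 (95% exact interval 28.1 to 6250, for counting error only). In edgeR, where the B values were rounded to 0, the FDR was 0.00112. Muc15 was 1.07, 1.25 and 2.14 CPM in B and 1.54, 5.80 and 22.3 CPM at the lowest, median and highest in BB, the highest being BB 7. It rose by 2.43 ± 0.65 (edgeR FDR 0.0305), which was not called without B 1 (FDR 0.175) or B 2 (FDR 0.184). Muc13 was too low to be tested, with 2 reads over B, and its highest BB values were 5.34 CPM in BB 3 and 2.69 CPM in BB 4. BB 3 and BB 4, like BB 1, were of low RNA integrity. In the 6 other BB libraries Muc13 was at most 0.708 CPM, and Muc1 rose by 6.22, Muc20 by 4.63 and Muc15 by 2.62 on the log2 scale. Over all genes 7.08% were called higher in BB (1274 genes), and the median log2 fold change was 0.23. This number moved with the settings, to 518 to 530 genes with a B library left out and to 4430 with DESeq2. Muc1 and Muc4, with 21 reads and 1 read over B, passed the filter through BB, so the members' calls are not counted against that share.

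Muc20 and Muc15 were lower in untreated ureter than in untreated bladder. Muc20 was lower in U than in B by 2.16 on the log2 scale (-2.16 ± 0.44, edgeR FDR 0.00117) and Muc15 was lower by 3.10 (-3.10 ± 0.66, edgeR FDR 0.00155), neither gene overlapping between the groups. Both genes stayed under 0.5 CPM in every U library and passed the filter through B, where they were higher, so these calls are not set against the share over all genes, which was 30% in either direction and 14.3% lower. Muc1 ranged from 0.248 to 0.557 CPM in U and from 0.241 to 0.627 CPM in B, Muc4 had 6 reads in U and 1 in B, and Muc13 had 8 and 2. These 3 genes were too low to be tested between untreated tissues. In the same comparison 10 of 11 superficial (1 higher) and 7 of 8 basal urothelial markers tested were called lower, beside 14.3% of all genes. All 8 adipocyte markers were called higher, beside 15.7%. The median log2 fold changes of these 3 lists were -2.64, -1.70 and 6.57. The part of tissue make-up in the differences of Muc20 and Muc15 was not tested.

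The response to BBN of the noncancer ureter was then set against that of the bladder. For Muc4 the fitted difference was -7.50 ± 1.76 on the log2 scale (edgeR FDR 0.0293), the smaller response being that of the ureter. Muc4 passed the filter through BB alone, so this call is not read against the 0.682% of all genes called in that direction. It rests on B values that were rounded to 0 and a UN that stayed under 0.3 CPM, so the size of the difference is not fixed. The call was lost without any 1 of the B libraries (FDR 0.104 to 0.123) and with mouse as a block (FDR 0.108). For Muc15 the difference was 0.23 ± 0.90 and for Muc20 -0.35 ± 1.22, neither called (edgeR FDR 0.943 and 0.936), with errors too wide to show equal responses. Muc13 gave -2.85 ± 2.23 (edgeR FDR 0.630). Muc1, given without a test, was -1.63 ± 1.50, and -3.46 without UN 3.

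Per kilobase of exon, Muc1 was the leading gene of the 5 members in 10 of 10 UT libraries, with a median share of 90.2% (60.4% to 93.6%) of their summed CPM per kb. Muc20 followed at a median of 8.22%. In BB Muc1 led in 6 of 9 libraries with a median share of 46.8%, Muc20 led in 2 and Muc15 in 1. In B Muc1 led in none of 3 libraries, with a median share of 22.0%, and Muc20 led in 2 and Muc15 in 1. In UN the leading gene varied: Muc1 led in 3 libraries, Muc20 in 3 and Muc13 in 1, the library of low RNA integrity and depth, UN 6. In U Muc1 led in 5 of 6 libraries with a median share of 51.6%, on few reads. The median level per kilobase in UT was 51.6 CPM per kb for Muc1, 4.74 for Muc20, 0.700 for Muc15, 0.210 for Muc13 and 0.202 for Muc4, and the last 2 did not differ beyond their spread. With UT 9 included these medians were 43.6, 2.72, 0.444, 0.282 and 0.0807.

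**Figure D4:**
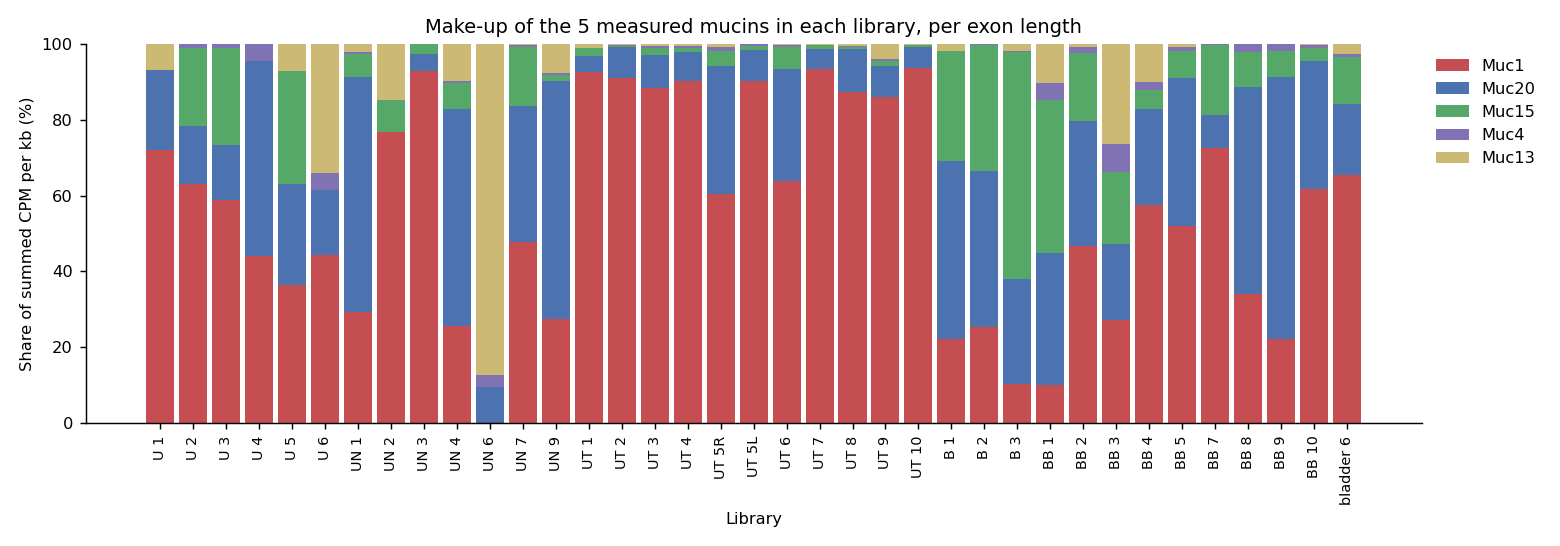
Share of each measured mucin in the summed CPM per kb of exon of the 5 genes, in percent on the y axis, with 1 stacked bar per library ordered by group. Muc1 takes most of each UT bar, 60.4% at the lowest, while Muc20 and Muc15 take most of each B bar.

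Tissue make-up differed between the groups, and in bulk libraries fewer cells of a type and less RNA per cell cannot be told apart. The summed level of 10 basal urothelial markers was 198 to 328 CPM in U, 54.4 to 11320 CPM in UN and 2515 to 12310 CPM in UT. UN 3 and UN 7, which had the most Muc1 of the UN libraries, had the highest basal sums there (11320 and 7761 CPM), and UN 2 and UN 6 the lowest (54.4 and 308 CPM). The 12 superficial urothelial markers summed to 1725 to 3361 CPM in U and 1783 to 5917 CPM in UT, and to 21220 to 22340 CPM in B against 3924 to 9494 CPM in BB. Single markers of this list moved apart in UT against U, where Upk1a (-4.37 on the log2 scale), Upk2 (-1.97) and Pparg (-2.48) were called lower and Gsdmc2 (7.43), Sprr1b (5.64) and Krt8 (1.30) higher. Adipocyte markers summed to 47030 to 73910 CPM in U, 10900 to 65710 CPM in UN and 58.6 to 25410 CPM in UT. UT 9, kept out of the groups, lay outside the UT ranges, at 615 CPM of basal, 1139 CPM of superficial and 40540 CPM of adipocyte markers. Smooth muscle markers summed to 1994 to 3617 CPM in U, 405.7 to 7076 CPM in UN and 439 to 2748 CPM in UT, and 7 of 10 were called lower in UT than in U and 7 of 10 lower than in UN, beside 14.4% and 7.97% of all genes. In bladder, basal markers summed to 2434 to 2650 CPM in B and 675 to 22820 CPM in BB (6842 CPM or more in the 6 BB libraries of higher RNA integrity), with 5 of 10 called higher beside 7.08% of all genes. Smooth muscle markers were at 9817 to 11770 CPM in B and 1119 to 7995 CPM in BB, and mesothelium markers at 408 to 613 CPM in B and 23.0 to 167 CPM in BB. Leukocyte markers in the ureter summed to 122 to 219 CPM in U, 139 to 685 CPM in UN and 171 to 1124 CPM in UT, with 7 of 10 called higher in UT than in U beside 18.6% of all genes. Kidney tubule markers, of which 5 of 7 tested were called higher in UT than in UN beside 2.80% of all genes, stood at 3165 CPM in UT 4 but at 7.71 to 19.2 CPM in the 9 other UT libraries and 8.25 to 28.8 CPM in UN. The summed level of 8 markers of oviduct and uterus epithelium was 53.7 to 69.1 CPM in U, 329 to 2122 CPM in UT, 19.8 to 29.2 CPM in B and 756 to 5009 CPM in BB. In UT against U, Ltf, Pax8, Wfdc18 and Sprr2f of this list were called higher, while Ovgp1 (0.60 on the log2 scale), Pgr (-0.0083) and Olfm1 (-0.61) were not called and Foxj1 was too low to be tested. The marker calls in UT against UN were lost with mouse as a block or with RNA integrity as a covariate. The part of these cell types in the mucin differences was not tested. Without UT 4, Muc1 in UT against UN was 3.87 ± 0.80 on the log2 scale.

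Genes whose levels ran most like each mucin over all 37 libraries were ranked by Pearson's r of log2(CPM + 1), which the shared group structure and library depth enter. For Muc1 they were Plscr1 (r = 0.918), Ptpn22 (0.915) and Kcnj16 (0.913), and for Muc20 Misp (0.935), 2310007B03Rik (0.919) and Plekhs1 (0.918). For Muc4 they were Sectm1b (0.860), Trim15 (0.848) and its neighbour Muc20 (0.837), and for Muc15 Slc5a9 (0.871), Scel (0.859) and Casp14 (0.852). For Muc13 they were Lrrc31 (0.832), Onecut2 (0.765) and Fth1 (0.757), on the sparsest counts of the members. Kcnj16, a potassium channel subunit, had a median of 47.1 CPM in UT, 1.65 in UN and 0.0655 in U. Among the members the highest pair over all libraries was Muc4 with Muc20 (r = 0.837), then Muc1 with Muc20 (0.798).

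No gene of a wider list of other mucins was called higher in BBN tissue of either organ. Of 20 listed, 13 have a row, and not all of these carry a mucin symbol. The most abundant were Cd164 (endolyn), Mcam and Parm1, none with such a symbol, at means of 294, 53.6 and 50.5 CPM over the 37 libraries. In UT against U none of the 8 tested rose and 3 fell, beside 18.6% and 14.4% of all genes. Mcam (-1.31 ± 0.28, edgeR FDR 0.000706), Parm1 (-1.53 ± 0.38, FDR 0.00222) and Podxl2 (-1.69 ± 0.41, FDR 0.00211) were the genes that fell. The genes with a mucin symbol tested there were Muc5b and Muc6, neither called. In UN against U edgeR called 0 of the 8, beside 13.5% of all genes, with 2 (Muc6 and Podxl2) at an unadjusted p under 0.05. In BB against B none of 12 rose and 1 fell, beside 7.08% and 5.47% of all genes. Parm1 fell there by 2.61 on the log2 scale (edgeR FDR 0.000467), from 154 to 176 CPM in B to 6.47 to 48.2 CPM in BB. The gel-forming Muc2, Muc5ac and Muc5b, picked after their values were seen, had medians under 1 CPM in every group. Muc6, gel-forming too, had a median of 1.53 CPM in BB (0.265 to 14.3) and was at most 0.349 CPM in B. It was called lower in UT than in UN (-1.67 ± 0.60, edgeR FDR 0.0779), at medians of 0.835 and 0.914 CPM, a call that was lost with mouse as a block and with RNA integrity as a covariate.

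Of 46 genes of the O-glycosylation machinery tested among 51 listed, 21 rose and 7 fell in UT against U, beside 18.6% and 14.4% of all genes, so that the number lower was near the share over all genes. Of the higher ones 11 were among 15 that build and extend cores. B3gnt3, which extends core 1 chains, was 1.04 to 1.88 CPM in U and 7.04 to 103 CPM in UT (4.29 ± 0.75 on the log2 scale, edgeR FDR 0.000133). Galnt3, a GalNAc-transferase that starts chains, was 2.73 to 8.07 CPM in U and 40.3 to 237 CPM in UT (4.02 ± 0.71, edgeR FDR 0.000142). Both also rose in UN against U, by 2.45 and 2.70, and in BB against B, by 4.63 and 2.30. The median log2 fold change over the 46 genes was 0.98 in UT against U, where that of all genes was 0.08. Among the 7 lower genes were the sulfotransferase Chst1 (-3.86 ± 0.65) and the sialyltransferases St3gal6 (-2.12 ± 0.38) and St6galnac5 (-2.85 ± 0.69), which were called lower in UT than in UN too.

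In UN against U 8 of 46 were called higher and 1, Galnt16, lower, beside 11.9% and 1.65% of all genes. In UT against UN 3 were called higher (Gcnt1, B3gnt3 and St6galnac2) and 3 lower (Chst1, St3gal6 and St6galnac5), beside 2.80% and 7.97%. These calls were all lost with mouse as a block or with RNA integrity as a covariate, as were those of all genes. In BB against B 5 of 47 were called higher and 5 lower, beside 7.08% and 5.47%, with Fut1 (5.09 ± 1.22) and B3gnt3 highest and Galnt16 lowest (-5.95 ± 0.47), from 114 to 130.5 CPM in B to 0.562 to 4.33 CPM in BB. The response of Galnt16 to BBN was weaker in the ureter (difference 4.36 ± 0.57, edgeR FDR 9.5e-05). In untreated tissue 16 of 42 were lower and 6 higher in ureter than in bladder, beside 14.3% and 15.7%.

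**Figure D5:**
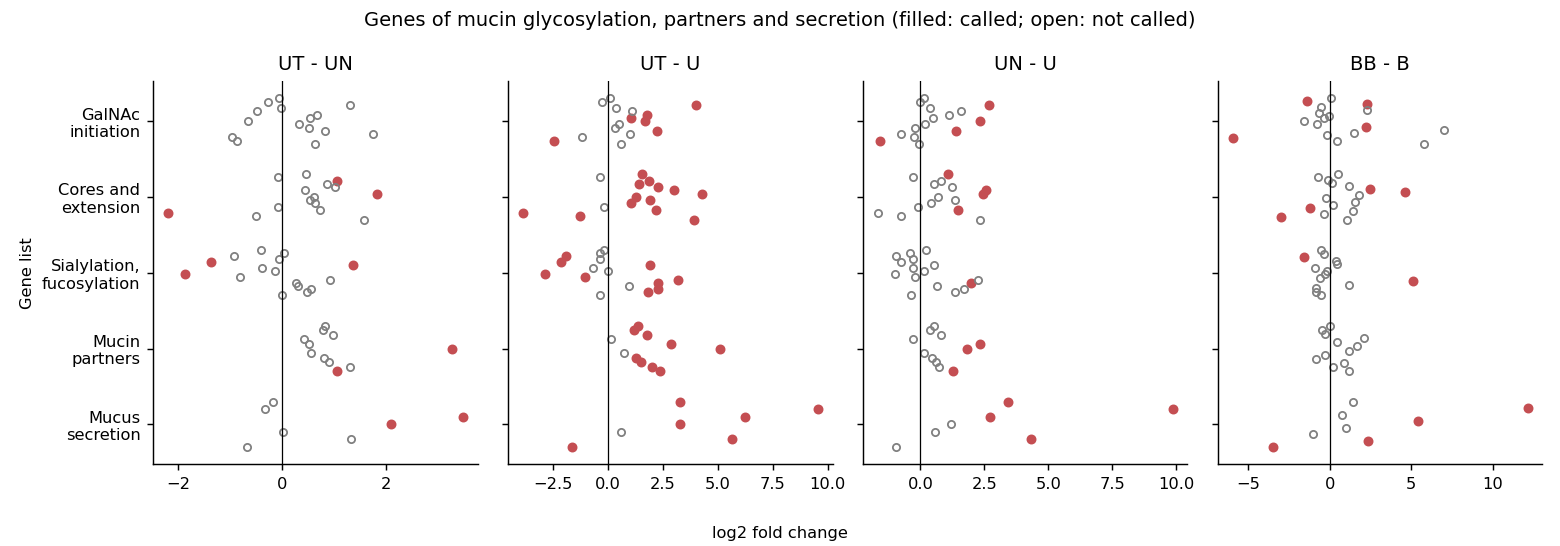
Each point is a tested gene of a list on the y axis, placed by its log2 fold change on the x axis, in UT against UN, UT against U, UN against U and BB against B, each panel with its own scale. Filled points were called. Genes of cores and extension lie mostly to the right in UT against U, where 11 of 15 were called higher, while sialylation and fucosylation genes lie on both sides, with 5 higher and 4 lower of 16.

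Partners of mucins on the cell surface were counted in the same way. Of 11 tested, 9 were called higher in UT than in U, 3 in UN than in U and 2 in UT than in UN, beside 18.6%, 11.9% and 2.80% of all genes. In bladder edgeR called 0 of 12, beside 7.08% higher and 5.47% lower of all genes, with 1 (Lgals3) at an unadjusted p under 0.05. Their median log2 fold change there was 0.30, where that of all genes was 0.23. Msln (mesothelin), which binds Muc16, was 0.574 to 17.1 CPM in U, 1.93 to 47.8 CPM in UN and 19.5 to 507 CPM in UT, and UT exceeded UN by 3.28 ± 0.69 on the log2 scale (edgeR FDR 0.0342). Lgals3 (galectin 3), a lectin that binds Muc1 sugars, was 58.5 to 118 CPM in U, 140 to 1842 CPM in UN and 349 to 1472 CPM in UT, and rose in UN against U by 2.35 ± 0.51 (edgeR FDR 0.00546). Icam1, a Muc1 ligand, rose in UT against UN by 1.07 ± 0.27 (edgeR FDR 0.0347). The receptors Egfr, Erbb2 and Erbb3 rose in UT against U by 1.36, 1.18 and 1.80. Of the other listed receptors, Met was not called there (0.13, edgeR FDR 0.628) and Erbb4 was too low to be tested.

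Of 7 genes of mucus secretion tested in UT against U, 5 rose and 1 fell, beside 18.6% and 14.4% of all genes, and of 8 tested in BB against B, 3 rose and 1 fell, beside 7.08% and 5.47%. A single lower gene in a list of this length is near these shares. Pigr, which carries immunoglobulin A across epithelium, was 1.80 to 3.21 CPM in U, 1.85 to 121 CPM in UN and 26.6 to 471 CPM in UT, and rose in UT against U by 5.65 ± 0.76 (edgeR FDR 1.9e-05) and in BB against B by 2.33 ± 0.60 (edgeR FDR 0.0249). Clca1, a secreted mucus protein, rose in UT against UN by 3.49 ± 0.94 (edgeR FDR 0.0373) and Fcgbp from a median of 1.57 to 5.15 CPM (edgeR FDR 0.0478). These UT against UN calls, like those of Msln and Icam1, were lost with mouse as a block and with RNA integrity as a covariate. Tff1, a trefoil factor of mucous surfaces, was at most 0.0348 CPM in U and 0.0697 CPM in B, and reached 20.5 CPM in UT, 30.8 CPM in UN and 401 CPM in BB. Bcas1 fell in BB against B, by 3.49 on the log2 scale (edgeR FDR 0.00146).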

How the data were processed

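RNA from RNAlater-preserved tissue was made into libraries with SMARTerHT and Nextera XT kits. The authors mapped reads to GRCm38/mm10 and deposited raw estimated counts by gene symbol, with 21.1% of the nonzero values fractional. The submitters' processing notes name TopHat2 2.1.1 and Cuffdiff 2.2.1. Totals were 3557697 to 18793560 counts per library (37 libraries). Values were rounded to whole numbers and tested with edgeR 4.0.16 (quasi-likelihood, TMM normalization, filterByExpr), with calls at FDR under 0.1 and at least 2-fold. UT, UN and U shared a fit, bladders had their own, and the untreated tissues and the BBN effect in ureter minus bladder were fitted apart. DESeq2 1.42.0 and limma 3.58.1 gave alternatives. UT 9 was left out because the study draws 10 UT libraries.

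CPM were computed on library totals. Exon lengths and positions came from GENCODE vM21, and sequences from the RefSeq promoter table, which held 5 of the 6 symbols. The members and gene lists were chosen with earlier results of these data known. Named genes were the members and the 3 genes most correlated with each over 37 libraries (mean of at least 1 CPM). The 3 most abundant genes of the list of other mucins and called genes of the lists were named too. Muc2, Muc5ac and Muc5b were picked once values were known. The procedure was tested on simulated data. UT and UN libraries of a number came from the same mouse, and their deviations from group means correlated at -0.241 to 0.124 over 6 mice. Counting intervals and the limit of 3 counts cover counting error only. Where libraries of a group share a mouse, the p-values take them as independent.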

Additional observations from a re-analysis of the deposited data

Results flagged for a closer look

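Among 20 combinations of a mucin and a group checked for a library far from the rest, 2 stood apart, where chance gives about 1 in 20. Muc1 in UT 6 was 3.41 on the log2(CPM + 1) scale, below the next lowest UT library at 5.63. Muc13 in U 6 was 0.476 on that scale, above the next at 0.107, from 6 reads.

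The fitted BBN effect on Muc4 differed between noncancer ureter and bladder by -7.50 on the log2 scale, with untreated bladder values that were rounded to 0. The call was lost without any 1 of the B libraries and with mouse as a block.

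In the libraries kept out of the groups, the members other than Muc15 lay above every untreated library of their tissue. In UT 9 Muc1 was 16.3 CPM (highest U 0.557), Muc20 2.64 CPM (0.496), Muc13 0.955 CPM (0.391) and Muc4 0.588 CPM (0.195). In the bladder of mouse 6 Muc1 was 4.98 CPM (highest B 0.627), Muc20 2.44 CPM (2.30), and Muc4 and Muc13 each 0.271 CPM (0.0333 and 0.0697). Muc15 lay within the untreated range in both, at 0.367 CPM in UT 9 (highest U 0.385) and 1.45 CPM in the bladder of mouse 6 (highest B 2.14).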

How the results depend on the processing

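The 4 mucins tested in UT against U and the 2 in untreated ureter against bladder were called under every alternative that could be fitted for them, except that Muc13 did not pass the filter when UT and U were fitted alone. In UN against U, where 2 were called, 0 were in limma with mouse as a random effect, and 1 to 3 with a library left out, and none of the 4 passed the filter when UN and U were fitted alone. In BB against B 3 to 4 were called with a library left out. For the BBN effect in ureter minus bladder the 1 call became 0 with the mouse as a replicate block, and 0 to 1 with a library left out. Changes of sign were limited to values near 0 of that difference: Muc20 was 0.41 with the replicate block and 0.35 in the first range of library codes (an alternative chosen after seeing the data), and Muc15 was -0.022 without libraries of low RNA integrity and -0.29 to 0.80 with a library left out (-0.29 without UN 7, -0.15 without B 3, -0.014 without U 1, -0.020 without U 4, -0.011 without U 6). With a library left out, Muc1 ranged from 3.65 to 5.69 in UT against UN and from 7.88 to 8.25 in UT against U.

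O-glycosylation calls in UT against UN (6) fell to 1 with all 11 UT libraries and to 0 with only the 2 groups, RNA integrity as a covariate, the mouse as a replicate block, or the first range of library codes, and were 1 to 12 with a library left out (1 without UN 6 or UN 9, 3 without UN 2, 10 without UN 1 and 12 without UN 7). Calls over all genes in UT against UN (438 higher, 1245 lower) fell to 0 and 0 with the block, where 618 genes had an unadjusted p under 0.05 in edgeR, to 0 and 0 with RNA integrity as a covariate (1372 under 0.05), to 1 and 0 with only the 2 groups, to 17 and 9 in the first range of library codes, to 206 and 658 with all 11 UT libraries and to 279 and 638 with mouse as a random effect. With a library left out, the higher calls were 168 without UN 6, 208 without UN 9, 211 without UN 2 and 255 without UT 2, but 659 without UT 8, 867 without UN 3 and 928 without UN 7, and the lower calls 367 (without UN 6) to 1663 (without UN 3). In UN against U the 9 O-glycosylation calls were 15 in the first range of library codes and 7 to 15 with a library left out (15 without UN 9). Calls over all genes there (1851 higher, 257 lower) were 861 and 746 with mouse as a random effect. They were 2162 and 552 without UN 9, and 1392 and 132 without UN 3. In BB against B the 10 O-glycosylation calls were 17 with DESeq2 and 4 to 13 with a library left out (4 without B 1 or B 3, 5 without B 2). The causes were not tested. The block, which was fitted for UT against UN, the untreated tissues and the difference of the BBN effects, kept Muc15 (-3.05) and Muc20 (-2.13) called between untreated tissues, where both passed the filter through B, the group in which they were higher. The low counts of Muc4 and Muc13 limit what could be seen in U and B.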
